A study of Homo sapiens with 12 samples.

Results

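The 4 human HOX clusters held 82 of the 79473 KDM2B peaks that the 7 lists of the series contained. Peaks were taken when they overlapped 1 of 4 windows of the hg19 build by at least 1 base. The windows were HOXA (chromosome 7, 27.13 to 27.26 Mb, 130 kb), HOXB (chromosome 17, 46.6 to 46.81 Mb, 210 kb), HOXC (chromosome 12, 54.33 to 54.45 Mb, 120 kb) and HOXD (chromosome 2, 176.94 to 177.06 Mb, 120 kb). The study profiled KDM2B by chromatin immunoprecipitation and sequencing (ChIP-seq) with a Millipore antibody in 7 human leukaemia lines grown in IMDM with 10% FBS. K562 is a myeloid line, from the blast phase of a chronic myeloid leukaemia with the BCR-ABL1 fusion. Acute lymphoblastic leukaemia of B-cell origin (B-ALL) gave REH and SUP-B15, the latter again with BCR-ABL1, and that of T-cell origin (T-ALL) gave JURKAT, DND41, SIL-ALL and HPB-ALL. Lineages and fusions are background knowledge of these established lines, since the labels give the line names alone. No line was treated, and each had 1 KDM2B library, so no value has a replicate. A site of 1 line therefore cannot be told apart from a site of 1 library. The series holds no input library of DND41 or JURKAT.

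HOX genes encode homeodomain transcription factors that give cells their position along the body axis, and they lie in each cluster in the order of the body regions they specify. In cells that do not need them the clusters are classical targets of Polycomb repression, which places H3K27me3 and ubiquitinated H2A. KDM2B reads CpG-rich unmethylated DNA through a CXXC zinc finger and brings a variant Polycomb complex, PRC1.1, to it. In blood, HOXA9 and HOXA10 act in immature progenitors and in leukaemia, and HOXB4 is known for the expansion of haematopoietic stem cells.

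The members are 38 genes. HOXA has 10 of them (HOXA2, HOXA3, HOXA4, HOXA5, HOXA6, HOXA7, HOXA9, HOXA10, HOXA11 and HOXA13). HOXB also has 10 (HOXB1, HOXB2, HOXB3, HOXB4, HOXB5, HOXB6, HOXB7, HOXB8, HOXB9 and HOXB13). HOXC has 9 (HOXC4, HOXC5, HOXC6, HOXC8, HOXC9, HOXC10, HOXC11, HOXC12 and HOXC13), and HOXD has 9 (HOXD1, HOXD3, HOXD4, HOXD8, HOXD9, HOXD10, HOXD11, HOXD12 and HOXD13). By the gene order of the GRCh38.p14 table, the low-coordinate end is the anterior end, with genes of low number such as HOXA2 and HOXB1, in HOXA and HOXB. In HOXC and HOXD the low-coordinate end is the posterior end, with HOXC13 and HOXD13. Neither genes nor bases of hg19 were used here, so no peak was placed on a gene, and positions are given within the windows.

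Promoter sequences in the RefSeq table (GRCh38.p14) were matched for 20 of the 38 genes, namely 9 of HOXA, 1 of HOXB, 2 of HOXC and 8 of HOXD. Not matched were HOXA5, HOXB2 to HOXB9, HOXB13, HOXC6, HOXC8 to HOXC13 and HOXD9. The promoters are described because CpG is the dinucleotide that the CXXC finger reads. CG, which reads the same on both strands, was counted in the 250 bases before the first listed start of each gene. The promoters of these 20 genes held a median of 20.5 CpG (4 to 40), against a median of 11 over the 27303 genes of the table. HOXC4 and HOXC5 have the same promoter sequence, which was counted for each gene, and most of the 20 are HOXA or HOXD genes. A GC content above 50% with an observed to expected CpG ratio above 0.6 was found in 15 of the 20 and in 44.7% of all genes. Whether a KDM2B peak covers any of these promoters was not determined. The members with the most and the fewest CpG of each cluster are printed 5′ to 3′, in the gene's direction, with each CpG in capitals.

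Of the HOXA promoters matched, HOXA2, a hindbrain and neural crest regulator, had the fewest CpG, 8 (chr7:27102684-27102933, minus strand). HOXA13, which patterns the distal limb and the hindgut, had the most, 40 (chr7:27200092-27200341, minus strand).
HOXA2: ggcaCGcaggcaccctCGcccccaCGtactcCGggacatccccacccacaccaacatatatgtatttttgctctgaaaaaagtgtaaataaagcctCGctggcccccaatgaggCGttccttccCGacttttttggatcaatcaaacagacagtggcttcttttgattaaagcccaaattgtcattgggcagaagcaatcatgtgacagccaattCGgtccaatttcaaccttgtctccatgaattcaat
HOXA13: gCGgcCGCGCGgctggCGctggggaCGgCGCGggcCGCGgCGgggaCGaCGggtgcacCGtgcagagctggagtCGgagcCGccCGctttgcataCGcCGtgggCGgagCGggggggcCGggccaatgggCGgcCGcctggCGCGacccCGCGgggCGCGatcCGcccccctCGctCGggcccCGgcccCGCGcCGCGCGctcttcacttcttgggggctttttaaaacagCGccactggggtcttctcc

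HOXB1, which specifies a hindbrain segment, was the single HOXB gene matched and had 7 CpG (chr17:48531012-48531261, minus strand). HOXC4 and HOXC5 share their listed start, and this promoter had 14 CpG (chr12:54016638-54016887, plus strand).
HOXB1: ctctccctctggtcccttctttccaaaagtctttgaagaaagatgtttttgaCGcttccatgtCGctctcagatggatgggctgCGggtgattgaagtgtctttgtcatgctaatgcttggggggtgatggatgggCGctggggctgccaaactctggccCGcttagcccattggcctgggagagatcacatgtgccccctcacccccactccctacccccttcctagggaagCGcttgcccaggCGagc
HOXC4 and HOXC5: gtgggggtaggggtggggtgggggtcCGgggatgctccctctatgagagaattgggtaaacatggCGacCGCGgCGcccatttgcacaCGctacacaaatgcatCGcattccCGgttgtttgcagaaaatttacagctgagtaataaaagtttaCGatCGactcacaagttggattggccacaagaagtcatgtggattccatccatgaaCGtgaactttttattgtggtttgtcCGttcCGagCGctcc

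HOXD1 had the most CpG of the HOXD promoters matched, 31 (chr2:176188418-176188667, plus strand), and HOXD4 the fewest of all 20, 4 (chr2:176151300-176151549, plus strand).
HOXD1: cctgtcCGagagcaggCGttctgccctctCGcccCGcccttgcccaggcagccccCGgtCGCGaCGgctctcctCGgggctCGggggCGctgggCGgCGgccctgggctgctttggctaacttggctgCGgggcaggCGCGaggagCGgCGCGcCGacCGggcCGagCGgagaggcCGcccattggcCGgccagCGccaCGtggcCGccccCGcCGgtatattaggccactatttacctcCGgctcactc
HOXD4: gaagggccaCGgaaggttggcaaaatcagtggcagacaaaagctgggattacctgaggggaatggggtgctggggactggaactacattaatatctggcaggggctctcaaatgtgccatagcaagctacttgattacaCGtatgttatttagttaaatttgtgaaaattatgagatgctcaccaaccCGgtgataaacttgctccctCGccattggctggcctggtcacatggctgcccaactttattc

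The lines differed widely in how much of the HOX clusters was listed. In the lists as deposited SUP-B15 had the most peaks, 30 in all 4 windows, and HPB-ALL had none in any. JURKAT had 18 in HOXA, HOXB and HOXD, and K562 had 13 in HOXC and HOXD. REH had 8 in HOXA, HOXB and HOXC, SIL-ALL had 8 in HOXB, HOXC and HOXD, and DND41 had 5 in HOXA, HOXC and HOXD. The peaks covered 11309 bp in SUP-B15, 9535 bp in K562, 7137 bp in JURKAT, 1834 bp in SIL-ALL, 1648 bp in REH, 1177 bp in DND41 and 0 bp in HPB-ALL. So K562 came close to SUP-B15 in covered bases with 13 peaks, while REH and SIL-ALL had as many peaks as each other and little coverage. With every list held to a common score floor of 80.03, the highest of the lowest scores of the lists, the order changed. JURKAT then had 11 peaks, SUP-B15 had 10, SIL-ALL had 8, K562 had 7, DND41 had 2, REH had 1 and HPB-ALL had 0. Covered bases were then 6652 bp in K562, 5872 bp in JURKAT, 5651 bp in SUP-B15, 1834 bp in SIL-ALL, 686 bp in DND41 and 339 bp in REH. In all, a peak of at least 1 line of the lists as deposited covered 26889 bp, or 4.64% of the 580 kb of the windows.

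**Figure D1:**
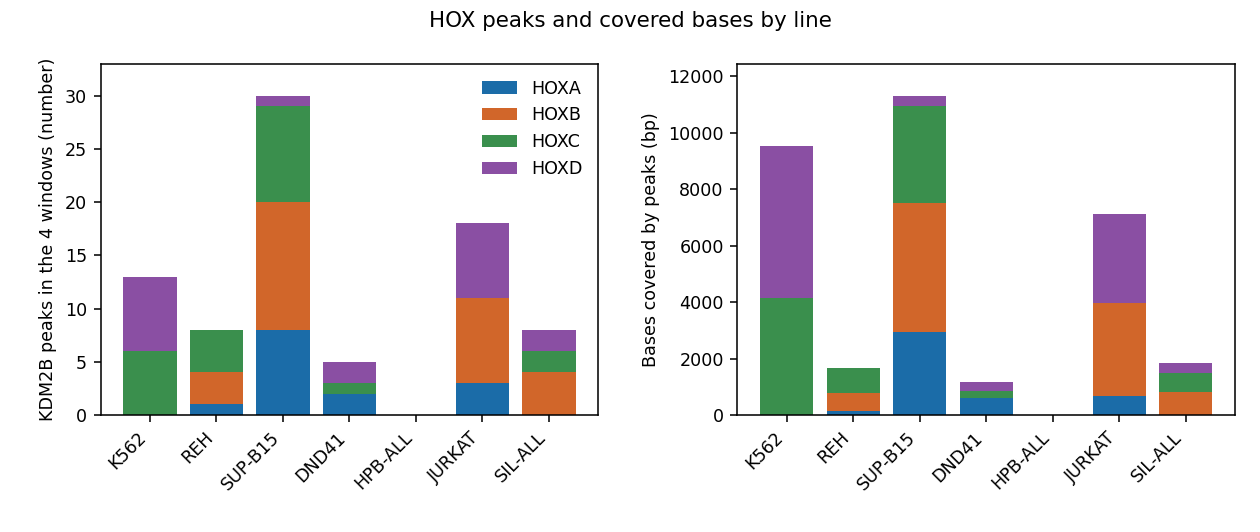
Stacked bars give, for each line, the number of KDM2B peaks (left panel, number) and the bases they cover (right panel, bp), coloured by HOX window. SUP-B15 has the tallest bars with 30 peaks and 11309 bp, K562 has peaks in HOXC and HOXD alone, and HPB-ALL has none.

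The windows make up 0.0187% of the hg19 sequence, and 6 of the 7 lists held a larger share of their peaks there. That baseline is the whole sequence, and windows of like CpG or gene content were not compared. The share was 0.398% of the list in SUP-B15 (Wilson 95% interval 0.28 to 0.57%), 0.219% in K562 (0.128 to 0.374%) and 0.121% in JURKAT (0.0767 to 0.192%). It was 0.0982% in REH (0.0498 to 0.194%), 0.0523% in SIL-ALL (0.0265 to 0.103%) and 0.0335% in DND41 (0.0143 to 0.0783%). Expressed as peaks per Mb relative to the whole list, this was 21.3-fold in SUP-B15, 11.7-fold in K562, 6.47-fold in JURKAT, 5.24-fold in REH, 2.79-fold in SIL-ALL and 1.79-fold in DND41. In the lists as deposited, the intervals excluded a ratio of 1 in all of these but DND41 (0.763 to 4.18). The DND41 share was 0.0168% with equal lists of the best 5942 peaks and 0.0134% for peaks at or above the median score, both below the share of the sequence. REH fell to 0.0358% (1 peak) with the common floor and SIL-ALL to 0.0337% (2 peaks) with equal lists. JURKAT had 0.185% with equal lists. Intervals are not given for these settings. In HPB-ALL 0 of 12765 peaks lay in the windows, which allows a share of up to 0.0235% and a ratio of up to 1.25. These intervals and limits cover counting error only and treat every peak as independent. Many HOX peaks lay within 500 bp of each other, so the intervals may be too narrow. The read depth of the libraries is unknown.

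**Figure D2:**
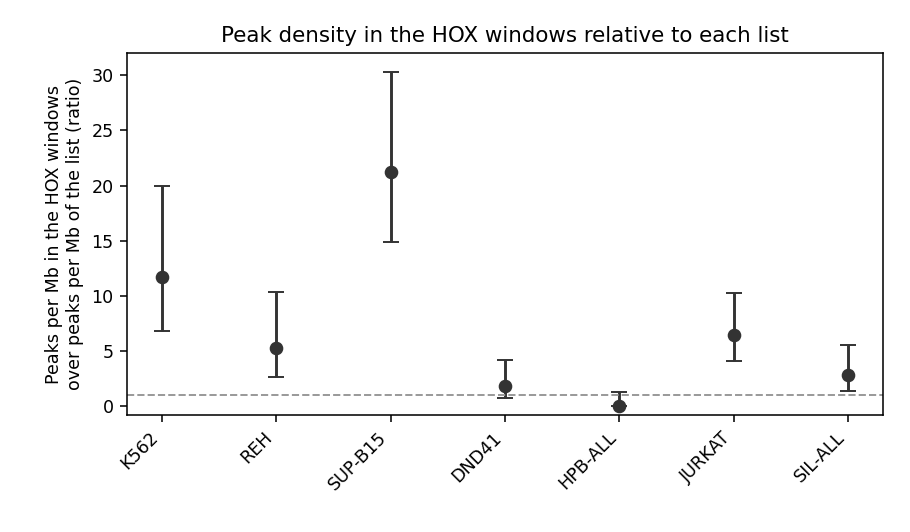
Points give the peak density in the 4 HOX windows divided by the density of the whole list (ratio, linear axis), 1 point per line. Bars are Wilson 95% intervals that treat peaks as independent, for HPB-ALL the limit that a count of 0 allows. The dashed line marks a ratio of 1. SUP-B15 lies highest at 21.3, and the intervals of DND41 and HPB-ALL reach below 1.

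Few peaks lay just outside the windows. The 50 kb on either side of each window, 400 kb in all, held 3 peaks over the 7 lists, against 82 in the 580 kb of the windows, or 1.07 against 20.2 peaks per Mb and list. The 3 were a K562 peak 7.31 kb below the HOXD window, a JURKAT peak 15.2 kb above HOXA and a SIL-ALL peak 44.1 kb below HOXB. Just inside, the outermost HOX peaks lay 2.74 kb from the low edge of HOXC (K562) and 16.3 kb from the high edge of HOXD (JURKAT). Over all lists and chromosomes the density was 3.67 peaks per Mb and list.

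In HOXA, whose posterior genes HOXA9 to HOXA13 lie toward the high-coordinate end, 14 peaks were listed in 4 lines. SUP-B15 had 8, JURKAT had 3, DND41 had 2 and REH had 1, and K562, HPB-ALL and SIL-ALL had none. Windows of the same length tiling the genome reached the SUP-B15 number in 0.446% of cases in that list. For JURKAT the share of such windows with at least 3 peaks was 9.35%, for DND41 with at least 2 it was 14.6%, and for REH with at least 1 it was 15.7%. SUP-B15 thus had a dense HOXA window in the list as deposited, and the other lines had numbers found in many windows. Most of its peaks there were low in score: 1 of the 8 was left at or above the median score of the list and 1 with the common floor, as many as JURKAT (1) and DND41 (1) had in both settings. Its 8 peaks covered 2943 bp, against 655 bp in JURKAT, 618 bp in DND41 and 136 bp in REH.

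Most HOXA peaks lay in the high-coordinate part. The strongest was a SUP-B15 peak at chr7:27223542-27224330 with a score of 262, at percentile 94.7 of its list, where a percentile of 50 is the middle of the list. A second SUP-B15 peak followed at 27224754 to 27224986 (score 63.5). The best DND41 peak, at chr7:27239517-27240010, had a score of 215 and stood at percentile 84.2, the highest rank that any HOX peak had in that line. The REH peak, at 27241594 to 27241729, had a score of 56.1. The 2 DND41 peaks, 1 SUP-B15 peak and the REH peak lay side by side from 27239256 to 27241729 but did not overlap. At the anterior end a single region, at 27135704 to 27136145, was common to SUP-B15 (score 60.3) and JURKAT (66.7), and no line had a peak in the 54.3 kb between 27136468 and 27190733. These 12 regions of 1 line and 1 region of both made HOXA the least shared of the clusters, with 70 bp in which peaks of different lines coincided, of 4282 bp in all.

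**Figure D3:**
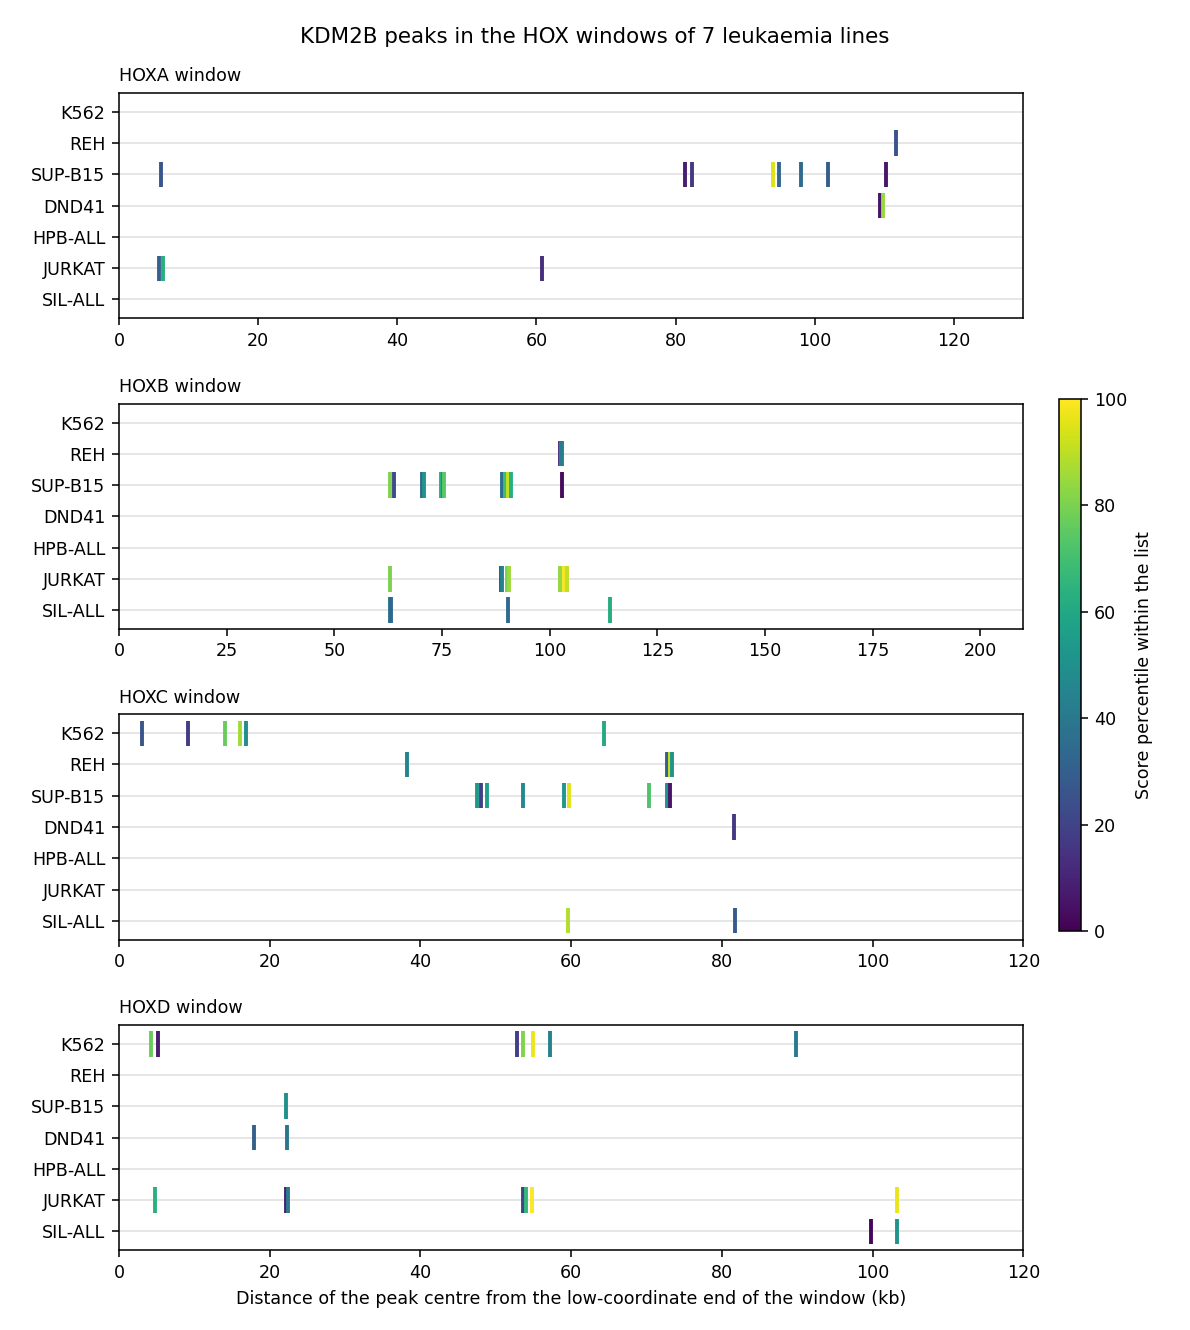
Each panel shows 1 HOX window with the distance from its low-coordinate end in kb on the horizontal axis and the 7 lines as rows. Each mark is the centre of a KDM2B peak, coloured by its score percentile in its own list (0 to 100). The marks bunch at the same distances in several lines in HOXB and HOXD. The first 62.6 kb and the last 95.8 kb of HOXB are empty, and the HPB-ALL row has no mark.

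In HOXB, 27 peaks were listed in 4 lines: 12 in SUP-B15, 8 in JURKAT, 4 in SIL-ALL and 3 in REH. K562, DND41 and HPB-ALL had none. Of windows of that length, 0.277% held at least 12 SUP-B15 peaks and 2.22% at least 8 JURKAT peaks, while 10.3% held at least 4 SIL-ALL peaks and 7.37% at least 3 REH peaks. All HOXB peaks lay between 46662609 and 46714199. The 95.8 kb above them, toward HOXB13, had no peak of any line, and neither had the 62.6 kb of the window below them. HOXB13, a regulator of tail and prostate development, stands apart from the other HOXB genes.

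HOXB had 4 places where peaks of several lines met; where a line had several peaks at a place, the best score is given. The first, at chr17:46662609-46663273, had peaks of SUP-B15 (score 131), JURKAT (142) and SIL-ALL (115). The second, at 46688759 to 46688967, had peaks of SUP-B15 (65.2) and JURKAT (75.1). The third, at 46689772 to 46690664, again had SUP-B15 (199), JURKAT (170) and SIL-ALL (107), and here the SUP-B15 peak was 893 bp wide. The same 3 lines therefore met at the first and the third place, and SUP-B15 alone had peaks between them at 46670261 to 46670924 and 46674597 to 46675702.

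The fourth place was the strongest of HOXB and lay higher up, from 46702223 to 46704141. JURKAT had 3 adjoining peaks there that covered 1825 of 1842 bp, with scores of 160, 583 and 215. Its middle peak, 1022 bp wide, stood at percentile 98.7 of the JURKAT list. The uppermost, at chr17:46703766-46704141, had the highest mean percentile of the HOXB regions (90.6) and was found in JURKAT alone. REH had its 3 HOXB peaks at the same place with scores of 52.7, 66.7 and 62.8, none above percentile 48.9. SUP-B15 had 1 weak peak there (score 50.8, percentile 2.85). The same stretch thus ranked near the top in JURKAT and in the lower part of the list in REH and SUP-B15. SIL-ALL alone had a peak at 46713909 to 46714199 (score 174). The HOXB places other than 46703766 to 46704141 were singled out after their values were seen.

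In HOXC, 22 peaks were listed in 5 lines, most of them outside the T-ALL lines. SUP-B15 had 9, K562 had 6 and REH had 4, whereas SIL-ALL had 2, DND41 had 1 and HPB-ALL and JURKAT had none. So in the lists as deposited K562, REH and SUP-B15 each had more HOXC peaks than any T-ALL line. The mean was 6.33 ± 2.52 (SD, n = 3) in those 3 lines and 0.75 ± 0.957 (SD, n = 4) in the T-ALL lines, a difference of -5.58 peaks (two-sided exact permutation p = 0.0286, the smallest this design allows). Over the 12 HOX comparisons made, the Benjamini-Hochberg adjusted value of this exact permutation test was 0.171, so the difference did not pass the adjustment. An ordering of this kind, with K562, REH and SUP-B15 each above every T-ALL line, was present in 0.166% of windows of that length. This share was counted for HOXC alone, the cluster that shows the ordering. The ordering needs a peak of each of these 3 lines, and most windows counted have no peak of K562, REH or SUP-B15. The share is therefore low from the outset and does not show that the HOXC ordering is unusual among windows with peaks. The exact permutation p was 0.0571 when peaks within 500 bp were counted as 1 and 0.0857 with the common floor. The ordering held in neither of these settings. REH (2) equalled SIL-ALL (2) when peaks within 500 bp were counted as 1, and with the common floor REH (1) lay below SIL-ALL (2).

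In HOXC the peaks covered 4156 bp in K562, 3432 bp in SUP-B15 and 853 bp in REH. Of the T-ALL lines, SIL-ALL had 663 bp, DND41 had 230 bp and HPB-ALL and JURKAT had 0 bp (exact permutation p = 0.0286, adjusted 0.171). These bases belong to the peaks counted above, so they are not a second result. The mean was 2814 ± 1736 bp (SD, n = 3) against 223 ± 313 bp (SD, n = 4). The difference was -2590 bp, and with the common floor it was -1571 bp (exact permutation p = 0.0571). For the single lists, 0.257% of windows held at least 9 SUP-B15 peaks, 0.293% at least 6 K562 peaks and 2.27% at least 4 REH peaks. The T-ALL numbers were common ones, with 13.8% of windows holding at least 2 SIL-ALL peaks and 20.7% at least 1 DND41 peak.

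The lines used different parts of HOXC. K562 had 5 of its 6 peaks at the posterior end on the side of HOXC13, a regulator of hair and nail growth, between 54332741 and 54347103. The strongest of these, at 54345466 to 54346520, had a score of 216 (percentile 86.2). No other line had a peak there, and the next peak of any line lay 21.0 kb further up. SUP-B15 had its peaks in the middle, from 54377405 to 54403162. The best SUP-B15 and the best SIL-ALL HOX peak lay at the same place in this stretch, chr12:54389284-54390239, with scores of 286 (percentile 95.5) and 435 (percentile 88.3). REH had its best HOX peak at chr12:54402941-54403279 (score 152, percentile 92.0), where SUP-B15 had a weak one (score 51.8, percentile 5.48). The K562 peaks shared no base with a peak of another line in HOXC, and DND41 and SIL-ALL met in 24 bp at 54411470 to 54411860.

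In HOXD, 19 peaks were listed in 5 lines, 7 each in K562 and JURKAT, 2 each in DND41 and SIL-ALL and 1 in SUP-B15. REH and HPB-ALL had none. At least 7 peaks were found in 0.186% of windows of that length in K562 and in 1.17% in JURKAT. The other numbers were frequent, with at least 2 peaks in 13.6% of windows in DND41 and 13.8% in SIL-ALL and at least 1 in 13.7% in SUP-B15. In the lists as deposited, the myeloid line K562 and the T-cell line JURKAT thus stood out from the rest in HOXD. SUP-B15, first by peak number in the other windows of those lists, had 1 HOXD peak. With the common floor JURKAT had 4 HOXD peaks, K562 had 3, SIL-ALL had 2, DND41 had 1 and SUP-B15, REH and HPB-ALL had 0. In HOXC K562 covered more bases than SUP-B15, and with the common floor it also had more peaks (4 against 3).

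The strongest HOX site of the series lay in the middle of HOXD. JURKAT had a peak of 1300 bp and K562 a peak of 1606 bp in the region chr2:176994128-176995743, with scores of 766 and 515, at percentiles 99.2 and 97.3 of their lists. Both lines had further peaks directly below it, so that peaks covered 3061 bp of the stretch from 176992611 to 176995743 in K562 and 1669 bp from 176993491 to 176995427 in JURKAT. No other line had a peak in this stretch. K562 and JURKAT met again at the posterior edge, on the side of HOXD13, which patterns digits, at 176943839 to 176944890 (scores 153 and 97.0). These 3 regions, all in HOXD, were all that K562 shared with any line in the HOX clusters, or 23.1% of its 13 HOX regions and 18.8% of the 16 of JURKAT.

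Other HOXD sites were found in lymphoid lines. SUP-B15 (score 76.1), DND41 (83.1) and JURKAT (54.8) met at 176961945 to 176962328, the most widely shared HOXD region. JURKAT (373, percentile 96.7) and SIL-ALL (142, percentile 51.4) met near the anterior end, on the side of HOXD1, at 177042749 to 177043667. K562 had no peak at either place. Between them lay the strongest region, with the K562 peaks directly below it. Above that region K562 alone had peaks at 176996916 to 176997591 (score 78.9) and 177029639 to 177030057 (score 75.3). These HOXD places were singled out after their values were seen, apart from the strongest region.

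Few HOX sites were common to lines. The 82 peaks merged into 59 regions, of which 44 had a peak of 1 line, 11 of 2 lines, 4 of 3 lines and none of 4 or more. So 15 of 59 regions (25.4%) had a peak of 2 or more lines, against 41.8% of all 29071 merged regions of the series. When peaks within 500 bp were merged, it was 12 of 35 HOX regions. The share over all regions merged in that way is not given, so this count has no background beside it. All regions with 3 lines lay in HOXB (3) or HOXD (1). In SUP-B15, 21 of 30 HOX regions were found in no other line, against 25.4% of all regions of that line. For K562 it was 10 of 13 against 29.2%, for REH 3 of 7 against 36.8%, and for DND41 3 of 5 against 26.8%. JURKAT had 5 of 16 against 27.5% and SIL-ALL 2 of 7 against 30.8%. The HOX sites of SUP-B15 and K562 were therefore mostly their own, while those of JURKAT and SIL-ALL were shared about as often as their other sites. HPB-ALL has no HOX region and lowers the sharing possible in the windows to 6 lines.

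**Figure D4:**
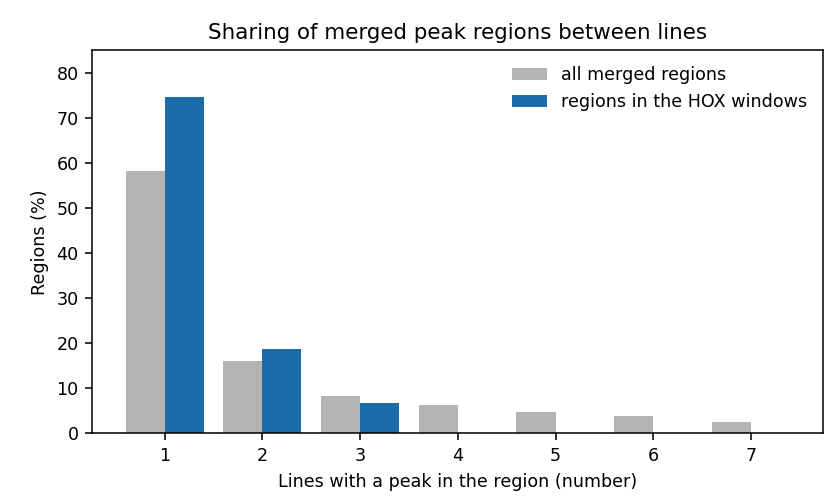
Bars give the percentage of merged regions (vertical axis) by the number of lines with a peak in them (horizontal axis, 1 to 7), for all 29071 regions in grey and the 59 HOX regions in blue. In the HOX windows 44 of 59 regions had 1 line and none had more than 3.

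Pairs of lines mostly shared a smaller part of their HOX regions than of all their regions. JURKAT shared 6 HOX regions with the B-ALL line SUP-B15, or 37.5% of its own and 20.0% of those of SUP-B15, against 28.1% and 50.3% over all regions. With K562 it shared 3, or 18.8% of its own and 23.1% of those of K562, against 25.4% and 52.7%. With SIL-ALL, also a T-ALL line, it shared 3, or 18.8% and 42.9%, against 49.0% and 46.2%. REH and SUP-B15, both B-ALL, shared 3, or 42.9% and 10.0%, against 36.2% and 39.0%. SIL-ALL and SUP-B15 shared 3, or 42.9% and 10.0%, against 25.9% and 49.4%. K562 shared none of its 13 with SUP-B15, against 37.9% of all its regions. These counts are descriptions of single libraries, with no test.

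HPB-ALL had no HOX peak although it had 12765 peaks, 653 of them on chromosome 7, 870 on 17, 683 on 12 and 894 on 2. Its nearest peaks lay 442 kb from HOXA, 176 kb from HOXB, 161 kb from HOXC and 72.8 kb from HOXD. At HOXD this last peak had counterparts in DND41 and SIL-ALL at 72.9 kb and in JURKAT at 73.0 kb. Windows with at least as many peaks over the other 6 lists as the HOX windows lacked an HPB-ALL peak in 10.7% of cases for HOXA. For HOXB it was 6.25%, for HOXC 7.43% and for HOXD 8.45%. Windows with more peaks than the cluster are included, which may lower such shares. The same measure gave 27.2% for the K562 absence from HOXA and 10.3% for that from HOXB, 13.3% for REH in HOXD and 4.94% for SIL-ALL in HOXA. Rarer were the absence of DND41 from HOXB (1.03%) and of JURKAT from HOXC (1.49%). The lowest score in the HPB-ALL list was 80, a higher floor than in K562, REH, SUP-B15, DND41 and JURKAT. With every list held to the common floor, HOX peaks went from 8 to 1 in REH, from 5 to 2 in DND41, from 30 to 10 in SUP-B15, from 13 to 7 in K562 and from 18 to 11 in JURKAT. SIL-ALL, whose floor is the common one, had its 8. The part of the floor in the HPB-ALL absence was not tested.

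HOX peaks ranked from the bottom to the top of their lists. Their median percentile was 47.3 over the 82 peaks, with a range of 1.82 to 99.2, where a whole list has its median at 50. By line the median was 64.8 in JURKAT, 49.1 in SUP-B15, 48.5 in K562, 43.3 in REH, 36.8 in SIL-ALL and 30.4 in DND41. JURKAT had 11 of 18 peaks in the upper part of its list (percentile 50 or above) and 4 at percentile 90 or above, SUP-B15 had 15 of 30 and 3, and K562 had 6 of 13 and 1. REH had 2 of 8 and 1, SIL-ALL 3 of 8 and 0, and DND41 1 of 5 and 0. By cluster the median was 28.2 in HOXA, 52.0 in HOXB, 51.0 in HOXC and 44.4 in HOXD.

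**Figure D5:**
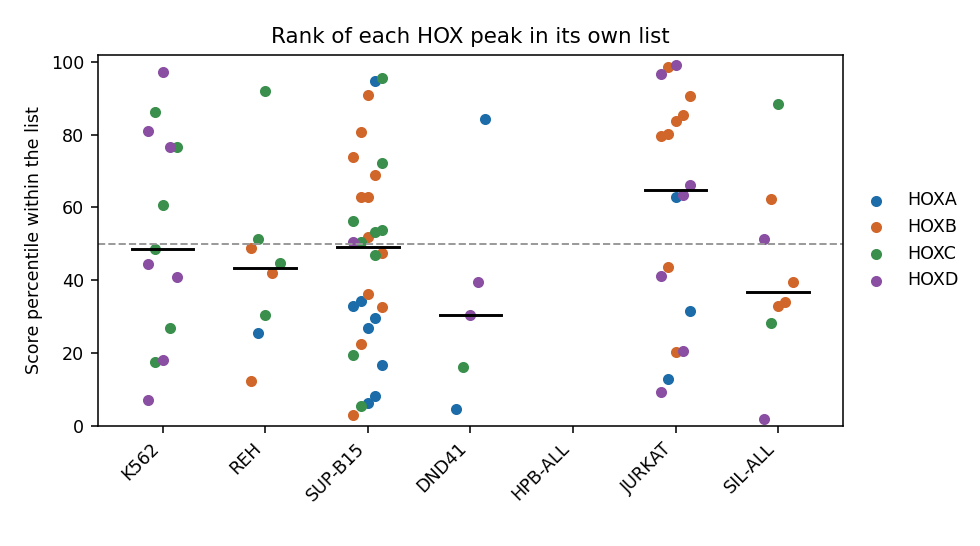
Each point is 1 HOX peak at its score percentile within its own list (vertical axis, 0 to 100), by line and coloured by window. Black lines are medians and the dashed line marks percentile 50. JURKAT has the highest median (64.8), most HOXA points lie low, and HPB-ALL has no point.

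Between the lineages, none of the 12 comparisons passed the adjustment. In the exact permutation test over the 35 divisions of the lines into 4 and 3, the T-ALL lines had 7.75 ± 7.59 HOX peaks (SD, n = 4) and the other lines 17.0 ± 11.5 (SD, n = 3; p = 0.286, adjusted 0.686). The difference was -9.25 peaks, and without SUP-B15 it was -2.75. With the common floor it was -0.75 (exact permutation p = 0.914). The share of the list was 0.0518 ± 0.0512% (SD, n = 4) against 0.238 ± 0.151% (SD, n = 3; exact permutation p = 0.0571, adjusted 0.229), a difference of -0.187 percentage points and -0.107 without SUP-B15. REH (0.0982%) lay below JURKAT (0.121%), so the groups overlapped. Every T-ALL list (12765 to 15304 peaks) was longer than every other list (5942 to 8146 peaks). With equal lists the difference in share was -0.182 percentage points (exact permutation p = 0.0857). Covered bases were 2537 ± 3159 (SD, n = 4) against 7497 ± 5143 (SD, n = 3; exact permutation p = 0.2, adjusted 0.6), and the difference of -4960 bp was -3054 bp without SUP-B15 and -7885 bp without REH. The median percentile could be compared in 6 lines, since HPB-ALL has no HOX peak, and was 44.0 ± 18.3 (SD, n = 3) against 46.9 ± 3.17 (SD, n = 3; exact permutation p = 0.9, adjusted 0.982, where 0.1 is the smallest p possible).

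HOXA, HOXB and HOXD, taken one by one, gave no difference that passed. The difference in peak number was -1.75 in HOXA, -2 in HOXB and 0.0833 in HOXD (exact permutation p = 0.714, 0.743 and 1, two-sided; adjusted 0.891, 0.891 and 1), and without SUP-B15 it was 0.75, 1.5 and -0.75. In covered bases it was -708, -716 and -946 bp (exact permutation p = 0.543, 0.629 and 0.629; adjusted 0.891 each). Among T-ALL lines alone, HOXB ran from 0 in DND41 and HPB-ALL to 8 in JURKAT, and HOXD from 0 in HPB-ALL to 7 in JURKAT.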

How the data were processed

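KDM2B ChIP-seq peak lists of 7 leukaemia lines were used, 1 per line. The 5 input libraries, of K562, REH, SUP-B15, HPB-ALL and SIL-ALL, were left aside. DND41 and JURKAT have no input library in the series, so their peaks have no matched input here. FastQC 0.10.1, Bowtie 1.1.1 and the build hg19 are named, per the submitters' processing notes. Peak names carry the MACS prefix, per the files; the settings of that caller are not stated in these sources. The score of each peak is the authors' own deposited value, with no unit stated, and served only to rank or filter peaks within a list, except for the common floor, which assumes 1 scale. The lists differ in length and in their lowest score, and depth is unknown.

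The windows, members and gene order were chosen with earlier results of these data known. A percentile is the mid-rank share of the own list. Peaks overlapping by 1 base were merged into regions. Background shares come from adjoining windows of each cluster's length on hg19 chromosomes 1 to 22 and X (sizes from GenomeInfoDb 1.38.1). Regions were named when peaks of 4 or more lines lay in them (none), when their mean percentile was the highest of a cluster, or when they held a line's best HOX peak; others were named after their values were seen. Lines were compared by exact permutation, two-sided, with Benjamini-Hochberg adjustment over 12 comparisons; with 1 library a line, their p-values cannot separate lines from libraries. Counting was tested on simulated data. Peaks were not assigned to member genes, as this needs an hg19 annotation. Alternatives used the best 5942 peaks of every list (equal lists), the upper part of each list by score, a common floor, peak midpoints, windows extended by 50 kb, merging within 500 bp, 50% reciprocal overlap, B-ALL lines alone as the comparison, and 6 lines at a time. Python 3.11.15, numpy 2.4.6, pandas 2.3.3, scipy 1.17.1 and matplotlib 3.10.9 were used.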

Additional observations from a re-analysis of the deposited data

Results flagged for a closer look

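SUP-B15 stood far above the other lines in HOXA in the lists as deposited. It had 8 HOXA peaks, next to 3 in JURKAT and down to 0, and its HOXA peaks covered 2943 bp, next to 655 bp in JURKAT. The gap to the next line took up 0.63 and 0.78 of the whole range of the 7 lines. Both values come from the same 8 peaks. In the upper part of each list by score, or with the common floor, SUP-B15 had 1 HOXA peak, as JURKAT (1) and DND41 (1) did. In all, 12 sets of values were examined with Dixon's limit, which is set so that chance marks about 5% of sets of normally spread values; counts are not spread so, and the sets share peaks. SUP-B15 also had the most peaks in HOXB (12) and HOXC (9), where the gap to the next line was a smaller part of the range.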

How the results depend on the processing

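No paired analysis was possible because a line has a single list and lines share no replicate numbers. Of 150 recomputed differences between T-ALL and other lines, 115 gave the same direction and the same call, 17 no longer passed an unadjusted exact permutation p of 0.05 and 18 changed sign (T-ALL against the B-ALL lines is the same as leaving out K562 and is counted once); the cause was not tested. The HOXC number passed no more with the common floor (-2.17), with peaks within 500 bp counted as 1 (-3.25), against the B-ALL lines (-5.75) or without any 1 line (-6.75 to -4.25), and the HOXC bases with the common floor (-1571 bp), against the B-ALL lines (-1919 bp) or without any 1 line (-3571 to -1919 bp). With 6 lines, the smallest p exceeds 0.05, so those fits could not pass. Signs changed as follows. The median percentile difference was 13.6 with equal lists, 11.3 for peaks at or above their list's median score and -13.3 to 3.86 with a line left out (positive without DND41 or SIL-ALL). The HOXA number was 0.167 for peaks at or above the median score and with the common floor, and -3.25 to 0.75 with a line left out; its bases were -1221 to 250 bp. The HOXB number was 0.5 with the common floor and -4.5 to 1.5 with a line left out; its bases were -1588 to 699 bp. HOXA and HOXB turned positive without SUP-B15. The HOXD number was -1.67 with equal lists, -0.0833 for peaks at or above the median score, -0.25 in extended windows and -1.33 to 2.25 with a line left out (negative without REH, SUP-B15 or JURKAT); its bases were 787 bp against the B-ALL lines and -1902 to 787 bp with a line left out.

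The number of merged regions was 30 for peaks at or above the median score, 28 with the common floor, 35 when peaks within 500 bp were merged, and 39 (without SUP-B15) to 59 with a line left out. Regions with 2 or more lines numbered 9 of 47 with equal lists and 7 of 30 for peaks at or above the median score. They numbered 7 of 28 with the common floor and 12 of 35 when peaks within 500 bp were merged. With 50% reciprocal overlap they numbered 7 of 75. With a line left out they numbered 8 (of 55, without JURKAT) to 15. The share over all merged regions is given for the lists as deposited only, so these counts do not show whether HOX sharing changed relative to it. The region at 54402941 in HOXC had 1 line in place of 2 with equal lists, above the median score and with the common floor. HPB-ALL had 0 HOX peaks in every setting run, including windows extended by 50 kb. Depth, which is unknown, limits what an absent peak means.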

Other observations

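HOX peaks were on the median wider than the whole list in K562 and JURKAT and narrower in the other 4 lines that had any. The median width was 676 bp in K562 against 552 bp over its list, 329 against 350 bp in SUP-B15, 257.5 against 240 bp in JURKAT and 193.5 against 213 bp in REH. It was 192 against 213 bp in DND41 and 187.5 against 223 bp in SIL-ALL. The widest was the K562 peak of 1606 bp in HOXD.

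Many HOX peaks lay close together. Counted as 1 when within 500 bp of each other, the 30 SUP-B15 peaks made 18 stretches, the 18 of JURKAT made 10, the 13 of K562 made 9 and the 8 of REH made 4. The longest was the K562 stretch of 3133 bp in HOXD, followed by the SUP-B15 stretch of 2500 bp in HOXB, from 46688772 to 46691271. In bases, 30.5% of what any line covered in HOXD and 30.0% in HOXB was covered by 2 or more lines, against 10.1% in HOXC and 1.63% in HOXA.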
